A study of Mus musculus with 17 samples.

Results

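The transcripts of myostatin, the activins, their secreted binding proteins and their receptors were followed in the diaphragm, the muscle that drives breathing, of mice with and without a tumor. The 10 genes were taken by symbol from a table of 47643 gene symbols. Among them were the ligands Mstn, Gdf11, Inhba and Inhbb, the secreted binding proteins Fst and Fstl3, and the receptors Acvr2a, Acvr2b and Acvr1b. Fstl1, a secreted protein that shares the follistatin domain, was the remaining gene. All 10 symbols were found, and 9 of them passed the filter for testing (at least 1 TPM in at least 3 of 17 mice), together with 13305 genes in all. Inhba did not pass and is described without a test across genes. TPM, transcripts per 1000000, is a read count divided by gene length and scaled to the same sum in each mouse, so levels of different genes can be compared.

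RNA-seq was done on 17 male C57BL/6J mice, 4 months old, with no transgene or deletion in any group. Control mice (n = 5) had no tumor and received mock injections into the peritoneal cavity, and Control + rFibcd1 mice (n = 5) received by the same route the recombinant C-terminal part of Fibcd1, a fibrinogen-like protein that muscle secretes. LLC mice (n = 3) carried tumors grown from the Lewis lung carcinoma line after injection under both flanks and received mock injections, and LLC + rFibcd1 mice (n = 4) carried the same tumors and received rFibcd1. As models these groups are limited to a single transplanted tumor line and to a protein delivered to the cavity that borders the diaphragm. The study asked how a tumor changes the diaphragm and whether rFibcd1 limits that change.

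Myostatin is a growth factor of the TGF-beta family that muscle fibers secrete and that restrains muscle growth. Its mature dimer, like Gdf11 and the activins, binds the type II receptors Acvr2a and Acvr2b, which recruit type I receptors such as Acvr1b, and the complex phosphorylates Smad2 and Smad3. Follistatin and Fstl3 hold these ligands in the extracellular space and block receptor binding. The pathway is known for its part in muscle wasting, and its blockade enlarges muscle.

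The libraries were of similar depth, with 50.7 to 54.5 reads per mouse in units of 1000000, as recovered from the steps of the low values, and 1 TPM in a gene of 1 kilobase stood for 23.9 to 26.7 reads. Myofiber markers were abundant in every mouse (11 of 11 listed genes at 1 TPM or more, summed TPM from 51030 to 65410), as the label diaphragm muscle requires. The summed markers of fast fibers were lower in tumor-bearing mice (35700 to 39230 TPM in Control, 34810 to 41120 in Control + rFibcd1, 31240 to 32460 in LLC and 30580 to 35060 in LLC + rFibcd1). Tnnt3 and Tnnc2 were the largest parts of this sum (means of 12410 and 10180 TPM in Control), so it does not measure type 2b fibers alone. Not every gene of that list went along: 6 of 8 had a lower mean in LLC than in Control. Myh4, the type 2b myosin itself, averaged 905 TPM in Control and 1313 in LLC, and Actn3 255 and 269.9. In LLC + rFibcd1, 8 of 8 had a lower mean than in Control + rFibcd1. In LLC the summed markers of macrophages (310 to 645 TPM in Control and 989 to 1125 in LLC) and B cells (2.46 to 97.1 TPM in Control and 226 to 287 in LLC) were higher. The groups given rFibcd1 overlapped. Macrophage markers were 242 to 1821 TPM in Control + rFibcd1 and 443 to 1094 in LLC + rFibcd1, and B cell markers 3.47 to 139 and 18.4 to 282 TPM. In bulk tissue, fewer cells of a type and less RNA per cell cannot be told apart. Mitochondrially encoded transcripts held 45.9% to 48.4% of TPM in Control and 41.3% to 44.3% in LLC, and TPM of all other genes are scaled to the remainder. The median tested gene was higher by 0.13 on the log2 scale in tumor-bearing than in tumor-free mice, by 0.16 in LLC than in Control, and by 0.12 in LLC + rFibcd1 than in Control + rFibcd1.

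Tumor-bearing mice had less Mstn and more Fst, Inhbb, Fstl1, Gdf11 and Fstl3 transcript than tumor-free mice, while the receptors Acvr2a, Acvr2b and Acvr1b did not pass the test. Of the 9 members tested in tumor-bearing (n = 7) against tumor-free mice (n = 10), 5 rose, where 38.8% of all genes rose, and 1 fell, where 5.98% of all genes fell (limma, adjusted p under 0.05). Among mock-injected mice, LLC against Control, 4 rose (Fst, Fstl1, Gdf11 and Fstl3), where 29.7% of all genes rose, and 1 fell (Mstn), where 6.02% fell. In LLC + rFibcd1 against Control + rFibcd1, which shares no mouse with the preceding comparison, 1 rose (Fst), where 7.02% of all genes rose, and 1 fell (Mstn), where 1.04% fell. Rising was thus common among all genes, and 86.7% of the genes called in tumor-bearing mice were higher. That share was 52.8% after median-ratio scaling, 70% after rescaling without mitochondrially encoded genes and 35.4% after quantile normalization. The median log2 change of the 9 members was 0.36 against 0.13 over all tested genes.

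**Figure D1:**
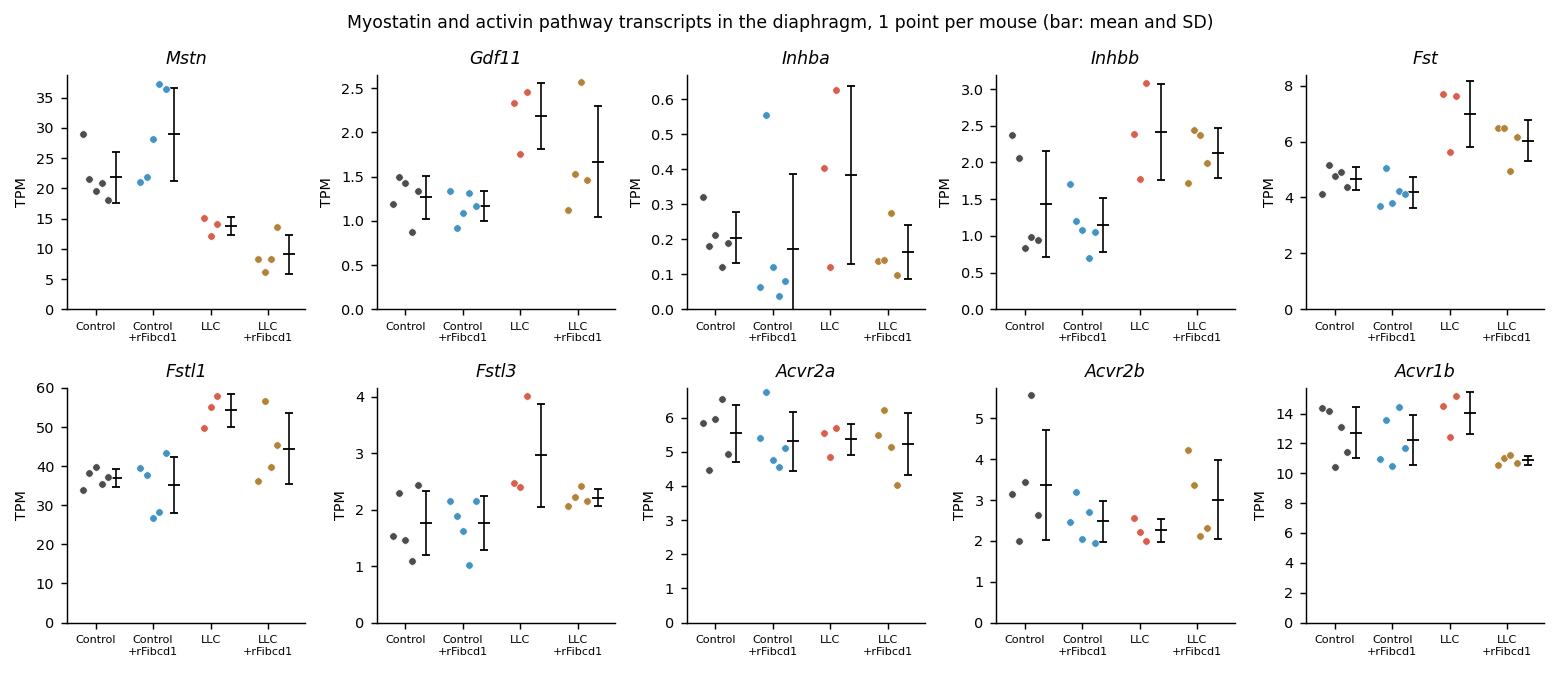
TPM of the 10 members by group, with 1 point per mouse in the order of the replicate numbers and a bar for the mean and SD, cut at 0 (linear axes from 0). Every tumor-bearing mouse lies below every tumor-free mouse for Mstn (6.15 to 15.1 against 18.1 to 37.3 TPM), and no other member separates these 7 from these 10 mice.

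Among the 10 members, Fstl1 and Mstn were the most abundant transcripts in the Control diaphragm, at means of 37.0 and 21.8 TPM. Acvr1b followed at 12.7 TPM, and these 3 genes did not overlap in range with each other or with the next gene. Acvr2a (5.55 TPM), Fst (4.67), Acvr2b (3.36), Fstl3 (1.76), Inhbb (1.44) and Gdf11 (1.27) came next, and each of them overlapped in range with its neighbor in this order. Inhba was lowest at 0.204 TPM, below every value of Gdf11. In Control + rFibcd1, Fstl1 (35.1 TPM) and Mstn (29.0 TPM) overlapped. In LLC, Acvr1b (14.1 TPM) and Mstn (13.8 TPM) overlapped, and in LLC + rFibcd1 Acvr1b (10.9 TPM) overlapped with Mstn (9.08 TPM), which in turn overlapped with Fst (6.02 TPM). Mstn thus ranked above Acvr1b in both tumor-free groups, and Acvr1b had the higher mean in both tumor-bearing groups, being the higher of the pair in 2 of 3 LLC and 3 of 4 LLC + rFibcd1 mice.

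Mstn (ENSMUSG00000026100.6) lies on chromosome 1 from 53061640 to 53068079 on the plus strand of GRCm38 and encodes myostatin. The 250 bases before its start (RefSeq, GRCm38.p6, chr1:53061390-53061639, plus strand) are shown because Mstn is the member with the largest change and because promoters of muscle genes are read through E-boxes (CANNTG), the sites of MyoD and its relatives, which are in capitals:

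Mstn promoter: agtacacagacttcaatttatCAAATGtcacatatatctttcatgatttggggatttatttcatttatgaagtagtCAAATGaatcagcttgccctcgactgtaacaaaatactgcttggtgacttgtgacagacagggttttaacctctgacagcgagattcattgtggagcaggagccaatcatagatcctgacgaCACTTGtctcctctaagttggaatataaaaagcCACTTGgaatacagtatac

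The 4 E-boxes begin 229, 174, 52 and 19 bases before the start. Of 32851 promoters of the same length, 66.2% hold at least 1 E-box and 3.84% hold at least 4. The SMAD element CAGAC, searched on both strands, occurs at 2 places (244 and 120 bases before the start) and in 42.2% of promoters. The forkhead letters GTAAACA, searched on both strands, were not in this window and were in 3.17% of promoters. E-boxes and SMAD elements did not overlap here, and such matches are letters in a window, not measured binding. Of the other members, 8 had an entry, among which Fstl3 held 3 E-boxes, Gdf11 and Acvr1b 1 each, and the remaining 5 none.

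In Control mice, Mstn stood at 29.0, 21.5, 19.6, 20.8 and 18.1 TPM, and in Control + rFibcd1 mice at 21.1, 21.9, 28.2, 37.3 and 36.4 TPM. In LLC mice it stood at 15.1, 12.1 and 14.2 TPM, and in LLC + rFibcd1 mice at 8.30, 6.15, 8.26 and 13.6 TPM. The tumor-bearing mice were low without exception, the rFibcd1-treated tumor-free mice reached the highest values, and 3 of the 4 LLC + rFibcd1 mice fell below all LLC mice. Among all genes tested, 0.526% were lower in all 7 tumor-bearing than in all 10 tumor-free mice, and 1.74% were higher. Such shares were not counted for the pairwise comparisons of groups. Separations of LLC from Control, or of LLC + rFibcd1 from another group, therefore describe the values only, here and below.

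Mstn fell by 1.14 ± 0.15 on the log2(TPM + 1) scale in tumor-bearing mice (SE, limma, adjusted p = 0.000426), the 57th smallest p of 13305 genes, from 25.4 to 11.1 TPM on average, and relative to the median gene it was lower by 1.27 (log2 change -1.27). A two-sided exact permutation test, which took in 19448 ways to split the 17 mice, gave p = 5.14e-05, the smallest that it can give (50 such tests were run over 10 members and 5 comparisons). In LLC + rFibcd1 against Control + rFibcd1, Mstn fell by 1.58 ± 0.21 (adjusted p = 0.0011, the 17th smallest), from 29.0 ± 7.7 (SD, n = 5) to 9.08 ± 3.17 TPM (SD, n = 4), a ratio of 0.313. From Control to LLC, it fell by 0.61 ± 0.23 (adjusted p = 0.0456), from 21.8 ± 4.23 (SD, n = 5) to 13.8 ± 1.52 TPM (SD, n = 3), a ratio of 0.631. The 3 LLC mice lay below all 5 Control mice, but leaving out any of these 8 mice gave an adjusted p between 0.0518 and 0.12, so that the call passed in none of the 8 fits. In tumor-bearing against tumor-free mice it passed in 17 of 17 such fits (adjusted p from 0.000213 to 0.0014).

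Between tumor-bearing mice, Mstn was not past the threshold with rFibcd1: the log2 change from LLC to LLC + rFibcd1 was -0.60 (95% interval -1.10 to -0.10, unadjusted p = 0.0229 in limma, adjusted p = 0.2). Without a tumor, the log2 change with rFibcd1 was 0.37 (95% interval -0.04 to 0.79, adjusted p = 0.927). The difference between these changes, tested as the interaction of tumor and rFibcd1, was -0.97 (95% interval -1.62 to -0.32, unadjusted p = 0.00639 in limma, adjusted p = 0.266) and did not pass either.

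Mstn was also set against the summed fiber markers. The summed myofiber markers were lower by 0.17 (log2 difference -0.17) in tumor-bearing mice and the 8 fast fiber markers by 0.23 (log2 difference -0.23), and 8 of 8 of the latter were at 1 TPM or more. Per 10000 TPM of myofiber markers, Mstn amounted to 2.93 to 4.71 TPM in Control, 3.55 to 5.86 in Control + rFibcd1, 2.22 to 2.86 in LLC and 1.16 to 2.33 in LLC + rFibcd1. This ratio differed by -1.05 (log2) between tumor-bearing and tumor-free mice (exact permutation test, two-sided, p = 5.14e-05, the smallest possible) and by -0.42 between LLC and Control (exact permutation p = 0.0357). Per 10000 TPM of fast fiber markers, the differences were -0.98 (exact permutation p = 0.000103) and -0.40 (exact permutation p = 0.0536), the latter not past the threshold. These ratios were added after the values had been seen. Mstn alone had already separated tumor-bearing from tumor-free mice, and the marker sums moved little beside it. The tests of the ratios therefore largely repeat that of Mstn and are not separate support.

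**Figure D2:**
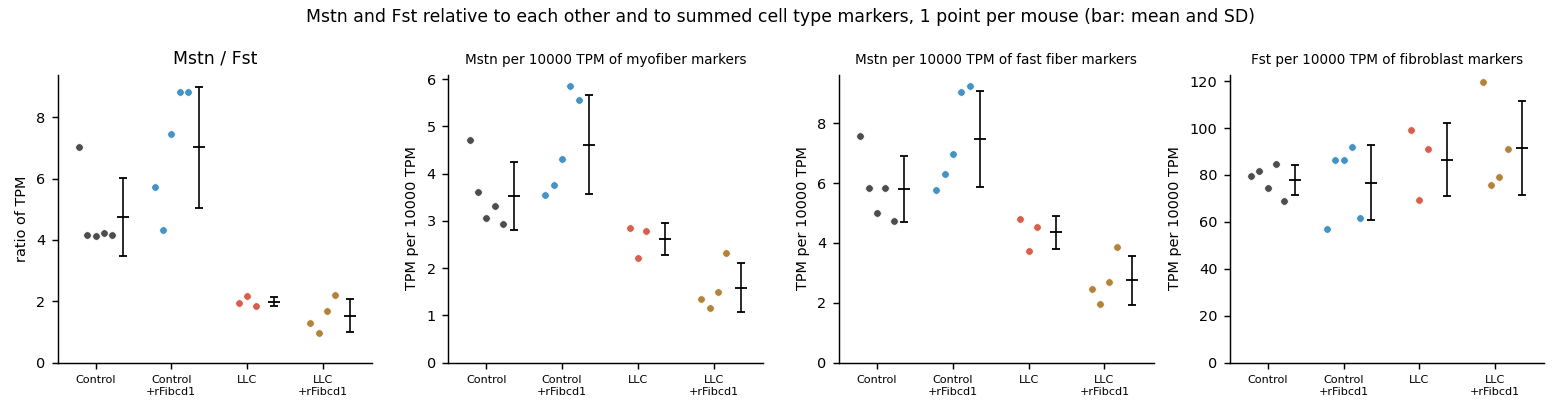
Ratio of Mstn to Fst TPM, Mstn per 10000 TPM of summed myofiber and fast fiber markers, and Fst per 10000 TPM of summed fibroblast markers, with 1 point per mouse and a bar for the mean and SD (linear axes from 0). The ratio of Mstn to Fst is at most 2.21 in tumor-bearing mice and at least 4.12 in tumor-free mice, while Fst per fibroblast marker overlaps between all groups.

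Gdf11 (ENSMUSG00000025352.6, chromosome 10, 128882295 to 128891718, minus strand), the closest relative of myostatin, moved in the opposite direction. It stood at 1.19, 1.49, 1.43, 0.877 and 1.33 TPM in Control, 1.33, 0.918, 1.09, 1.32 and 1.16 in Control + rFibcd1, 2.33, 1.76 and 2.46 in LLC, and 1.12, 1.53, 2.57 and 1.46 in LLC + rFibcd1. All 3 LLC mice were above all Control mice, whereas the LLC + rFibcd1 mice were spread over the range of both, with replicate 3 high and replicates 1 and 4 among the tumor-free values. It rose by 0.37 ± 0.10 in tumor-bearing mice (adjusted p = 0.00966) and by 0.49 ± 0.15 in LLC against Control (adjusted p = 0.0206). It was not past the threshold in LLC + rFibcd1 against Control + rFibcd1 (0.28 ± 0.13, adjusted p = 0.184). After quantile normalization the 2 calls were lost (0.13, adjusted p = 0.311, and 0.17, adjusted p = 0.392). The call in LLC against Control passed in 4 of 7 other settings, was also lost with median-ratio scaling (adjusted p = 0.0504) and with the replicate number as a block (adjusted p = 0.0701), and failed without LLC replicate 3 (adjusted p = 0.104) and without LLC replicate 1 (adjusted p = 0.0733).

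Inhba (ENSMUSG00000041324.14, chromosome 13, 16011851 to 16031621, plus strand) encodes the subunit of activin A and was close to the limit of detection. It stood at 0.322, 0.180, 0.211, 0.121 and 0.188 TPM in Control, 0.0627, 0.555, 0.121, 0.0378 and 0.0817 in Control + rFibcd1, 0.405, 0.121 and 0.626 in LLC, and 0.138, 0.141, 0.274 and 0.0990 in LLC + rFibcd1. The steps of its values correspond to 2 to 30 reads per mouse (6 to 16 in Control, 2 to 28 in Control + rFibcd1, 6 to 30 in LLC and 5 to 14 in LLC + rFibcd1). The groups overlapped, 2 of 3 LLC mice and Control + rFibcd1 replicate 2 were high, and no difference was detectable at this depth between LLC and Control (exact permutation test, two-sided, p = 0.214, smallest possible 0.0179).

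Inhbb (ENSMUSG00000037035.5, chromosome 1, 119415465 to 119422248, minus strand), which encodes the subunit of activin B, was the more abundant activin transcript in every group. It stood at 2.38, 2.06, 0.834, 0.978 and 0.944 TPM in Control, 1.71, 1.21, 1.08, 0.695 and 1.05 in Control + rFibcd1, 2.39, 1.77 and 3.08 in LLC, and 1.72, 2.44, 2.38 and 1.99 in LLC + rFibcd1. The 4 LLC + rFibcd1 mice were above all Control + rFibcd1 mice, while 2 Control mice reached the level of the tumor-bearing ones. These Control mice, replicates 1 and 2, had summed adipocyte markers of 1772 and 1536 TPM, against 597 to 703 in the others. Replicate 1 of Control + rFibcd1, the highest there for Inhbb, also had the highest sum (1876 TPM). In LLC, replicate 1 had the highest sum (3928 TPM) but replicate 3 the most Inhbb. In LLC + rFibcd1, replicate 2 had the highest sum (1856 TPM) and the most Inhbb, but replicate 1, the lowest for Inhbb, had 1441 TPM. Adipocyte markers were not alone in this. Control replicates 1 and 2 were also highest of their group for summed B cell (75.9 and 97.1 TPM) and macrophage markers (473 and 645 TPM). Control + rFibcd1 replicate 1 was likewise highest of its group (139 and 1821 TPM). The part of any of these cells was not tested. Inhbb rose by 0.53 ± 0.14 in tumor-bearing mice (adjusted p = 0.00921), on average from 1.29 to 2.25 TPM. Neither pairwise comparison passed (LLC against Control, 0.52 ± 0.21, adjusted p = 0.0638, and LLC + rFibcd1 against Control + rFibcd1, 0.55 ± 0.19, adjusted p = 0.0818).

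Fst (ENSMUSG00000021765.9, chromosome 13, 114452290 to 114458951, minus strand) encodes follistatin, the secreted inhibitor of activins and myostatin, and had the smallest p of the members that rose. It stood at 4.14, 5.16, 4.77, 4.91 and 4.36 TPM in Control, 3.68, 5.06, 3.79, 4.23 and 4.13 in Control + rFibcd1, 7.70, 5.61 and 7.64 in LLC, and 6.49, 6.49, 4.95 and 6.15 in LLC + rFibcd1. All LLC mice exceeded all Control mice, and 6 of 7 tumor-bearing mice exceeded all tumor-free mice, the exception being LLC + rFibcd1 replicate 3.

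Fst rose by 0.45 ± 0.07 in tumor-bearing mice (adjusted p = 0.00112), by 0.49 ± 0.11 in LLC against Control (adjusted p = 0.0112) and by 0.44 ± 0.10 in LLC + rFibcd1 against Control + rFibcd1 (adjusted p = 0.0179). The first of these passed in 17 of 17 fits that left out a mouse. The second failed without LLC replicate 3 (adjusted p = 0.0721) and the third without LLC + rFibcd1 replicate 2 (adjusted p = 0.062). The second also failed in 2 of 7 other settings, quantile normalization (adjusted p = 0.257) and the replicate block (adjusted p = 0.0612). The third passed in 2 of 7 other settings only, with adjusted p from 0.0503 to 0.188 in the 5 in which it failed. With Mstn falling and Fst rising, the ratio of their TPM was 4.12 to 7.02 in Control, 4.33 to 8.81 in Control + rFibcd1, 1.86 to 2.16 in LLC and 0.948 to 2.21 in LLC + rFibcd1. In LLC + rFibcd1 replicate 2, Fst thus exceeded Mstn. The ranges of tumor-bearing and tumor-free mice did not overlap, and this ratio was not tested because its parts were.

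Fstl1 (ENSMUSG00000022816.11, chromosome 16, 37776873 to 37836514, plus strand), a secreted glycoprotein of mesenchymal cells that shares the follistatin domain, was the most abundant member in every group. It stood at 34.0, 38.2, 39.9, 35.4 and 37.3 TPM in Control, 39.6, 37.7, 26.8, 28.3 and 43.3 in Control + rFibcd1, 49.8, 55.1 and 57.9 in LLC, and 36.1, 56.8, 39.7 and 45.4 in LLC + rFibcd1. The LLC mice were all high, and the groups given rFibcd1 overlapped. Fstl1 rose by 0.42 ± 0.10 in tumor-bearing mice (adjusted p = 0.00681) and by 0.54 ± 0.15 in LLC against Control (adjusted p = 0.0177, and 0.0874 without LLC replicate 3), but did not pass in LLC + rFibcd1 against Control + rFibcd1 (0.34 ± 0.14, adjusted p = 0.136).

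Fstl3 (ENSMUSG00000020325.10, chromosome 10, 79777272 to 79782630, plus strand), which binds activins and myostatin like follistatin, stood at 1.53, 2.29, 1.47, 1.10 and 2.44 TPM in Control and 2.15, 1.88, 1.62, 1.01 and 2.15 in Control + rFibcd1. It stood at 2.47, 2.40 and 4.01 in LLC and 2.06, 2.22, 2.41 and 2.15 in LLC + rFibcd1. Only LLC replicate 3 was clearly apart from the other mice, and all other tumor-bearing mice were at or near the upper end of the tumor-free range. Fstl3 rose by 0.36 ± 0.12 in tumor-bearing mice (adjusted p = 0.0281, and 0.0902 without LLC replicate 3) and by 0.52 ± 0.18 in LLC against Control (adjusted p = 0.0375, and 0.219 without LLC replicate 3). Both calls were also lost under each of 3 other scalings of the values, with adjusted p up to 0.374. In LLC against Control, the call passed in only 3 of 8 fits with a mouse left out and in 1 of 7 other settings.

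Fst and Fstl1 were also set against summed fibroblast markers. The 9 markers of fibro-adipogenic progenitors and fibroblasts, all at 1 TPM or more, summed to 520 to 640 TPM in Control, 438 to 672 in Control + rFibcd1, 775 to 838 in LLC and 542 to 857 in LLC + rFibcd1, a log2 difference of 0.33 between tumor-bearing and tumor-free mice. Ly6a, which other cells also express, accounted for much of this sum, with means of 128 TPM in Control, 132 in Control + rFibcd1, 237.5 in LLC and 214 in LLC + rFibcd1. Other markers of the list did not go along, as Pdgfra averaged 7.30 TPM in Control and 7.27 in LLC, and Lum (52.0 and 43.7 TPM) and Col1a2 (47.6 and 46.2 TPM) had lower means in LLC + rFibcd1 than in Control + rFibcd1. Relative to this sum, Fst differed by 0.20 (exact permutation p = 0.112) and Fstl1 by 0.10 (exact permutation p = 0.00134) between tumor-bearing and tumor-free mice. Between LLC and Control, Fst relative to this sum differed by 0.14 (exact permutation p = 0.357) and Fstl1 by 0.12 (exact permutation p = 0.0536). Which cells made these transcripts was not tested.

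The receptors gave no call in any comparison. Acvr2a (ENSMUSG00000052155.5, chromosome 2, 48814109 to 48903269, plus strand) ranged from 4.02 to 6.74 TPM over the 17 mice and Acvr2b (ENSMUSG00000061393.14, chromosome 9, 119402118 to 119434995, plus strand) from 1.96 to 5.57 TPM. Both encode type II receptors that bind the ligands first, and in every group their ranges and those of Control overlapped.

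In tumor-bearing against tumor-free mice, the log2 change of Acvr2a was -0.03 (95% interval -0.22 to 0.16, adjusted p = 0.793) and that of Acvr2b -0.07 (95% interval -0.38 to 0.24, adjusted p = 0.701). From Control to LLC, the change was -0.03 for Acvr2a (95% interval -0.31 to 0.25) and -0.37 for Acvr2b (95% interval -0.83 to 0.09, adjusted p = 0.184). Quantile normalization, which lowered the median gene, gave calls for Acvr2a in both comparisons (-0.25, adjusted p = 0.0205, and -0.35, adjusted p = 0.0304) and for Acvr2b in LLC against Control (-0.70, adjusted p = 0.0362). Acvr2a overlaps Orc4 on the opposite strand (at most 4.62 TPM), Fstl3 overlaps Prss57 (at most 0.124 TPM), Inhba, Fst and Acvr2b overlap antisense genes, and whether the counting used strand is not given in the sources used here.

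Acvr1b (ENSMUSG00000000532.11, chromosome 15, 101174067 to 101213684, plus strand) encodes the type I receptor of activins, ALK4, and was the most abundant receptor of the list. It stood at 14.4, 14.2, 10.4, 13.1 and 11.5 TPM in Control, 10.9, 13.6, 10.5, 14.4 and 11.7 in Control + rFibcd1, 14.5, 12.5 and 15.2 in LLC, and 10.6, 11.04, 11.2 and 10.7 in LLC + rFibcd1. The 4 LLC + rFibcd1 mice were close together and below all 3 LLC mice, but within the range of the tumor-free mice. From LLC to LLC + rFibcd1 the log2 change was -0.34 (95% interval -0.58 to -0.09, unadjusted p = 0.0101 in limma, adjusted p = 0.184), not past the threshold over all genes. Against tumor-free mice, the change was -0.03 in tumor-bearing mice (95% interval -0.19 to 0.13, adjusted p = 0.777).

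**Figure D3:**
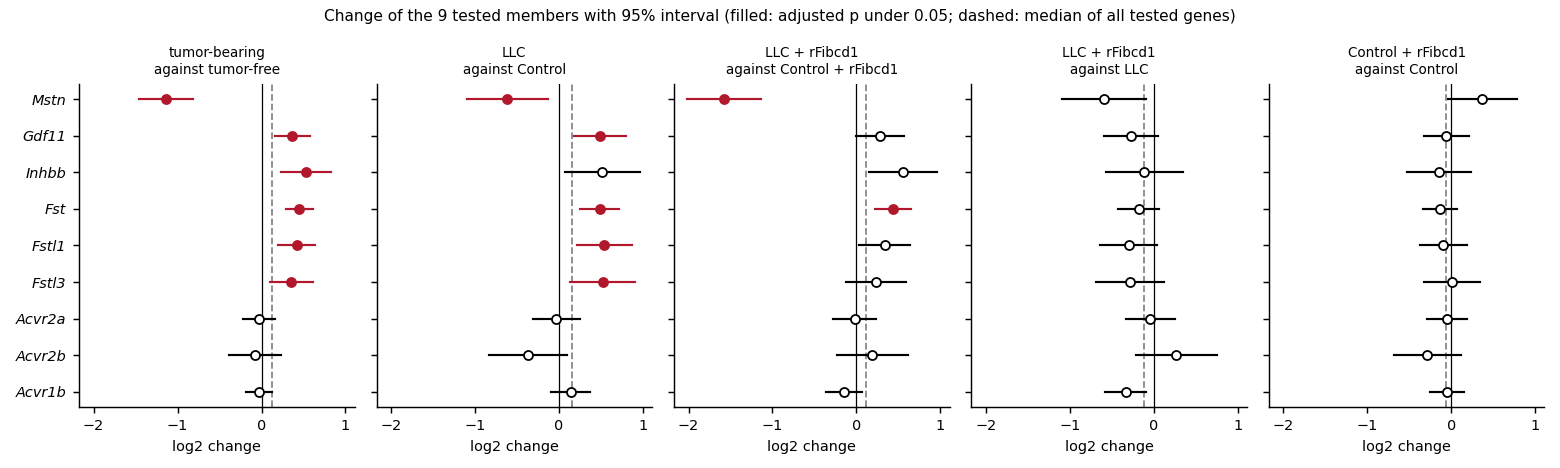
Log2 change of the 9 tested members in 5 comparisons (points) with 95% intervals (lines). Filled red symbols have an adjusted p under 0.05, and the dashed line is the median of all tested genes. Mstn is the only tested member with a negative call, at -1.14, -0.61 and -1.58 in the 3 tumor comparisons, and no member is filled in the 2 comparisons of rFibcd1 with mock.

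Injection of rFibcd1 moved no member past the threshold. In LLC + rFibcd1 against LLC, 0 of 9 members were called, where 0.113% of all genes were (15 genes), and 2 members had an unadjusted p under 0.05 (Mstn and Acvr1b), where 22.7% of all genes had one. The point estimates were negative for 8 of the 9 members, from -0.60 for Mstn to -0.04 for Acvr2a, and positive for Acvr2b (0.27, 95% interval -0.21 to 0.75), while the median over all genes was -0.12. For the members that had risen with the tumor, the intervals were -0.43 to 0.07 for Fst, -0.64 to 0.04 for Fstl1, -0.60 to 0.05 for Gdf11, -0.58 to 0.35 for Inhbb and -0.68 to 0.12 for Fstl3. Under quantile normalization the sign was positive for Inhbb, Fst and Acvr2a.

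In Control + rFibcd1 against Control, 0 members were called, where 0% of all genes were, and 0 members had an unadjusted p under 0.05, against 4.39% of all genes. For the interaction of tumor and rFibcd1, 0 members were called, where 0% of all genes were, and 1 (Mstn) had an unadjusted p under 0.05, against 8.58% of all genes. Dunn's test on ranks, adjusted over all genes, called 0 members and 0 genes in the 4 pairwise comparisons, those of tumor-bearing with tumor-free groups included. At an unadjusted p under 0.05 it marked 4 of 9 members in LLC against Control (Gdf11, Fst, Fstl1 and Fstl3), where it marked 37.5% of all genes, and 3 in LLC + rFibcd1 against Control + rFibcd1 (Mstn, Inhbb and Fst), where it marked 19.5%. It marked 1 member in LLC + rFibcd1 against LLC (Acvr1b), against 7.17% of all genes, and 0 in Control + rFibcd1 against Control, against 2.42%. The LLC against Control count of 5 members fell to 0 without LLC replicate 3, where 0.182% of all genes were called, and to 2 without LLC replicate 1, where 17% were.

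The wider pathway was read from 5 lists of genes around the members, whose counts stand against 38.8% of all genes higher and 5.98% lower in tumor-bearing mice, and 29.7% higher and 6.02% lower in LLC against Control. Of 14 further ligands of the TGF-beta family, 8 were tested and 1 rose in tumor-bearing mice: Tgfb1, the main immune and fibrotic member, by 0.61 ± 0.14 (adjusted p = 0.00492), with means of 11.6 TPM in Control, 10.01 in Control + rFibcd1, 19.5 in LLC and 15.2 in LLC + rFibcd1. The LLC mice were all above the Control mice (18.1 to 21.7 against 9.79 to 14.0 TPM), while LLC + rFibcd1 overlapped with the tumor-free groups. The median change of the list was 0.07, below that of all tested genes (0.13). In LLC against Control the same gene was the only call (0.72 ± 0.21, adjusted p = 0.0193).

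Of 12 other receptors and co-receptors, 11 were tested, 5 rose in tumor-bearing mice (38.8% of all genes did) and 0 fell, with a median of 0.15, and 2 rose in LLC against Control (Eng and Acvrl1), where 29.7% of all genes did. Endoglin (Eng) and Acvrl1, which endothelial cells use to receive Bmp9 and Bmp10, rose by 0.53 ± 0.10 (adjusted p = 0.00238) and 0.33 ± 0.08 (adjusted p = 0.0053). Eng ranged from 41.3 to 65.9 TPM in tumor-free mice and from 62.7 to 92.0 in tumor-bearing mice. Tgfbr2, the type II receptor of TGF-beta, rose by 0.31 ± 0.10 (adjusted p = 0.0187), and Acvr1c, the type I receptor ALK7 of fat cells, by 0.58 ± 0.22 (adjusted p = 0.047). Summed endothelial markers (6 of 6 at 1 TPM or more) were 166 to 199.7 TPM in Control, 161 to 193 in Control + rFibcd1, 189 to 215 in LLC and 215 to 239 in LLC + rFibcd1. Summed adipocyte markers (6 of 6) were 597 to 1772 TPM in Control, 661 to 1876 in Control + rFibcd1, 1060 to 3928 in LLC and 654 to 1856 in LLC + rFibcd1, so that every group overlapped with Control. The part of these cells in the results was not tested.

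Of 21 genes of ligand processing and extracellular binding, 15 were tested and 4 rose in tumor-bearing mice, where 38.8% of all genes rose, with a median of 0.14. They were Ltbp2 (0.76 ± 0.16, adjusted p = 0.00323), Ltbp3 (0.33 ± 0.09, adjusted p = 0.0105), Sparc (0.31 ± 0.09, adjusted p = 0.0129) and Furin (0.25 ± 0.05, adjusted p = 0.00369). Ltbp3 anchors latent TGF-beta in the matrix, Sparc is a matrix protein of mesenchymal cells, and Furin is the protease that cleaves the precursors of this family. Ltbp2 averaged 1.95 TPM in Control, 1.41 in Control + rFibcd1, 5.06 in LLC and 2.70 in LLC + rFibcd1, with all LLC mice above all others. Of the 15, 5 rose in LLC against Control, where 29.7% of all genes rose.

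Of 17 SMADs and their regulators, 16 were tested, 4 rose and 1 fell in tumor-bearing mice (38.8% and 5.98% of all genes did), with a median of 0.13, equal to that of all genes at this precision. Tgif1, a corepressor of SMAD transcription, rose by 0.46 ± 0.11 (adjusted p = 0.00659), and the ubiquitin ligases Nedd4l and Smurf1, which act on SMADs and receptors, rose by 0.23 ± 0.05 (adjusted p = 0.00506) and 0.21 ± 0.04 (adjusted p = 0.00139). Fkbp1a, which holds type I receptors inactive, rose by 0.22 ± 0.04 (adjusted p = 0.00259), and Zfyve9, the anchor that presents SMADs to the receptor, fell by 0.13 ± 0.04 (adjusted p = 0.0114) and was named after its value had been seen. The counts in LLC against Control were 4 higher and 0 lower, where 29.7% of all genes rose and 6.02% fell.

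Of 13 transcripts known to respond to SMAD signaling, 12 were tested and 4 rose in tumor-bearing mice, where 38.8% of all genes rose, with a median of 0.31 against 0.13 over all genes. Cdkn1a, a cell cycle inhibitor, rose by 0.90 ± 0.23 (adjusted p = 0.00811), and Id2, an inhibitor of E-box binding factors, by 0.53 ± 0.19 (adjusted p = 0.0374). Fbxo32 and Trim63, muscle ubiquitin ligases with several other inputs, were the other genes of this list that passed. Fbxo32 averaged 83.4 TPM in Control, 76.9 in Control + rFibcd1, 81.2 in LLC and 123 in LLC + rFibcd1. Trim63 averaged 99.1, 87.1, 92.1 and 158 TPM in these groups. The paper reports no significant induction of either gene by LLC tumors. The calls differed between the pairwise comparisons: only Id2 passed in LLC against Control (0.82 ± 0.29, adjusted p = 0.0377), and only Cdkn1a, Fbxo32 and Trim63 passed in LLC + rFibcd1 against Control + rFibcd1. Cdkn1a stood at 16.0 to 24.7 TPM in LLC and 30.7 to 47.5 in LLC + rFibcd1, against 13.3 to 18.2 in Control and 8.98 to 34.7 in Control + rFibcd1 (interaction 0.92 ± 0.47, adjusted p = 0.618).

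**Figure D4:**
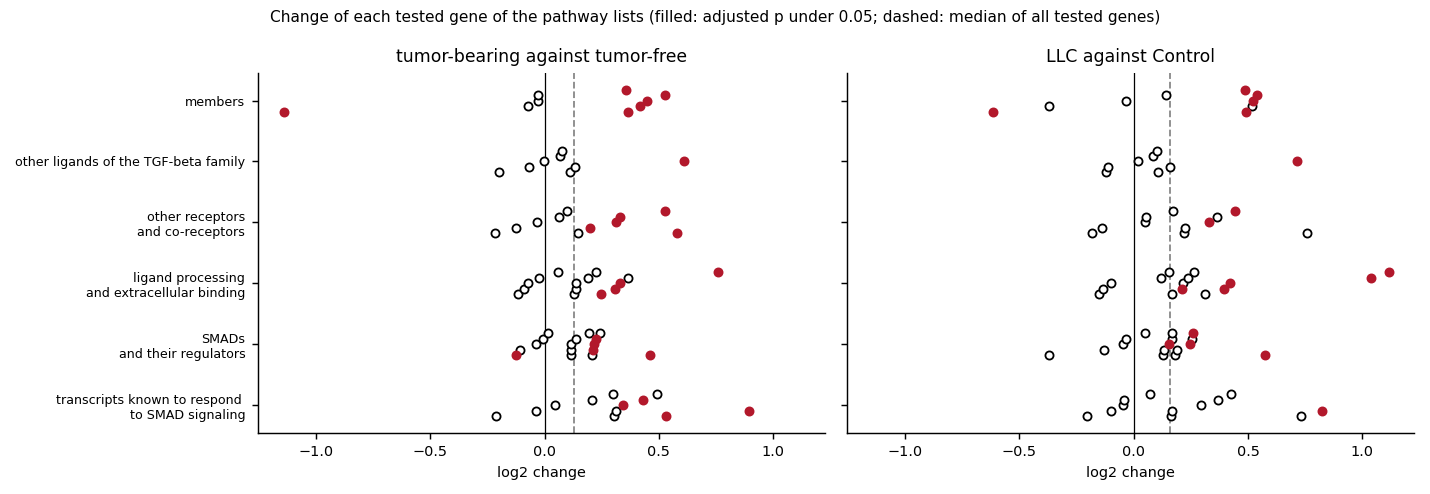
Log2 change of each tested gene of the members and of 5 pathway lists in tumor-bearing against tumor-free mice and in LLC against Control. Filled red points have an adjusted p under 0.05 and the dashed line is the median of all tested genes, so that Mstn stands alone at the left (-1.14 and -0.61) while most other calls lie to the right.

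Likeness to Mstn was measured for every tested gene over the 17 mice, and the 5 genes with the highest values are named. Casq1, the calcium store protein of fast fibers, had the highest Pearson r of log2(TPM + 1) with Mstn (0.916, Spearman rho 0.9), followed by Myl1, a fast myosin light chain (0.906), Mdga1 (0.895), Tpm1, a tropomyosin (0.891), and Mylk4, a kinase of the myosin light chain kinase family (0.89). These values are descriptions over mice of all 4 groups, which share the tumor difference, the library depth and the TPM scaling. Mylk4 averaged 116 TPM in Control, 137 in Control + rFibcd1, 83.0 in LLC and 38.6 in LLC + rFibcd1. Casq1 averaged 737, 742, 593 and 570 TPM in these groups. Both had the order of groups of Mstn, which genes chosen for likeness to it tend to have, so this order is no separate result.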

How the data were processed

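Diaphragm RNA was sequenced from 17 mice. The authors trimmed and filtered the paired reads, aligned them to GRCm38 and obtained gene values with CLC Genomics Workbench, and the deposited values are TPM. The release of the annotation and the use of strand are not given in the sources used here. Coordinates are from GENCODE vM21 on GRCm38, counted from 1. Groups and replicate numbers came from the sample titles, and 0 columns were left without a sample. The labels name replicates without saying more about their separation. For animal experiments, the paper counts single animals, or tissues from separate animals, as n. The p-values measure the spread between these samples.

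The 13305 genes that reached 1 TPM in 3 or more samples were tested on log2(TPM + 1) with limma 3.58.1 in R 4.3.3: a single fit of the 4 groups, empirical Bayes with trend, two-sided, Benjamini-Hochberg over all genes, threshold 0.05. The pseudocount of 1 TPM understates changes of low genes. The fit was tested on simulated data in which each gene varied independently of the others. Such data cannot test shifts that many genes share in a mouse. Single values were compared by exact permutation tests. Depth was estimated from the steps of low values, of which 82.0% to 84.4% lay within 0.02 of a whole read; these estimates entered no test. The members and lists were chosen with earlier results of these data known. All members are named; of each list, up to 4 genes past the threshold in tumor-bearing against tumor-free mice with the largest absolute change are named, and the 5 genes with the highest Pearson r with Mstn. Alternatives were a pseudocount of 0.1 TPM, no filter, 3 other scalings, a fit of the compared groups alone, a replicate block, Dunn's test and leaving out each mouse. The authors' tests were Kruskal-Wallis and Dunn's tests.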

Additional observations from a re-analysis of the deposited data

Results flagged for a closer look

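Inhba in Control + rFibcd1 replicate 2 stood at 0.555 TPM, or 28 reads, far above the other 4 mice of its group at 0.0378 to 0.121 TPM. The gap to the nearest mouse was 0.839 of the whole range of the group. In all, 30 groups of 4 or 5 mice were examined in this way for the 10 members, and chance alone marks about 5% of groups. Mstn in this mouse was 21.9 TPM, near the lower end of its group.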

How the results depend on the processing

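Mstn, Fst, Fstl1 and Inhbb passed in tumor-bearing against tumor-free mice in every limma fit of TPM that was run, and Mstn did so in LLC + rFibcd1 against Control + rFibcd1. In LLC against Control the 5 members called became 3 without a filter (Mstn at adjusted p = 0.0674), 3 with median-ratio scaling and 0 with Dunn's test, and 0 to 5 when a mouse was left out. In LLC + rFibcd1 against Control + rFibcd1 the 2 became 1 (Mstn) with median-ratio scaling, with rescaling without mitochondrially encoded genes, with quantile normalization and with only the groups of the comparison, 0 with Dunn's test, and 1 to 3 when a mouse was left out (Inhbb was the third, without Control + rFibcd1 replicate 1). The tumor-bearing against tumor-free count stayed at 5 to 6, and the remaining counts stayed at 0.

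Deviations of same-numbered mice of different groups had r from -0.459 to 0.485 over 22 pairs (median -0.061). Over 85 pairs with different numbers, r ranged from -0.649 to 0.747 (median -0.0255). By the median, same-numbered mice were thus not more alike than others, but so few pairs cannot show whether some numbers were handled together. With the replicate number as a block, 0 members passed in LLC against Control, where 5 of 13305 genes did, and 1 (Mstn) passed in LLC + rFibcd1 against Control + rFibcd1. The block changed no other count of members.

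Changes near 0 turned sign. In LLC against Control, Acvr1b was -0.032 with median-ratio scaling and -0.096 with quantile normalization. In LLC + rFibcd1 against LLC, quantile normalization gave 0.123 for Inhbb, 0.025 for Fst and 0.188 for Acvr2a, and Acvr2a was 0.063 with median-ratio scaling and 0.008 without mitochondrially encoded genes. Leaving out a mouse gave -0.066 to 0.022 for Acvr2a, -0.161 to 0.014 for Acvr2b and -0.078 to 0.003 for Acvr1b in tumor-bearing against tumor-free mice, -0.097 to 0.026 for Acvr2a in LLC against Control, and -0.254 to 0.025 for Inhbb and -0.117 to 0.058 for Acvr2a in LLC + rFibcd1 against LLC. The causes were not tested. With 3 LLC mice, calls in LLC against Control depended on single mice. The members called fell from 5 to 0 without LLC replicate 3 and to 2 without LLC replicate 1. Mstn passed in none of the 8 fits of that comparison that left out a mouse. Inhba is limited by its reads.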

Other observations

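Some transcripts of the lists, chosen after their values had been seen, are given here. Smad3, which carries the myostatin signal to the nucleus, stood at 18.5, 19.4 and 20.9 TPM in LLC, below all Control mice (22.1 to 28.8), and at 18.5 to 32.6 TPM in LLC + rFibcd1. The log2 change in LLC against Control was -0.37 ± 0.15 (limma, adjusted p = 0.0702), not past the threshold. Smad2, its partner, rose by 0.26 ± 0.09 in the same comparison (adjusted p = 0.0442), from 6.34 to 7.79 TPM. In this comparison 29.7% of all genes rose and the median gene changed by 0.16, so the rise of Smad2 is not particular to it. Inha, the subunit of the inhibins, was more abundant than Inhbb, at 2.63 to 3.70 TPM in Control and 3.16 to 3.72 TPM in LLC.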
